A study of Mus musculus with 8 samples.

Results

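Expression of 38 interferon response genes was examined in sorted mouse CD4+ T cells, and 36 of them had a probe set that named them, out of 18193 genes with a named probe set on the array. The genes were taken as a list by symbol, and for a gene with several probe sets the one with the highest mean log2 intensity over the 8 arrays was used. Of the 36 measured genes, 23 were classed as type I led, 10 as gamma-led and 3 belonged to the Ifitm family, which responds to both kinds of interferon. Isg15, whose probe set carries a further symbol, and Ifi44 were not analysed here. The 4 groups came from cells sorted by EGFP fluorescence out of mice whose Foxp3 gene carried an EGFP tag on either a mutant allele, called delta, or the wild-type (WT) allele, so every group carries the reporter. There were 3 arrays labelled delta EGFP+, 3 labelled WT EGFP+, 1 labelled delta EGFP- and 1 labelled WT EGFP-. The design text gives hemizygous males as the source of the EGFP+ cells. Neither strain, nor age, nor the lesion of the delta allele is stated in the labels. No label ties replicates to different animals, so p-values measure only how far these samples spread, and that spread may be technical.

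Type I interferons and interferon gamma are secreted proteins that bind separate receptors and signal through JAK kinases and STAT factors. Type I signals act mainly through a complex that contains STAT2 and IRF9 and binds the interferon-stimulated response element, while interferon gamma acts mainly through STAT dimers that bind a palindromic site. Antiviral proteins dominate the first response, and the guanylate-binding proteins, the immunity-related GTPases and the antigen-processing genes are strong in the second, although most genes answer to both to some degree. T cells make interferon gamma and respond to both kinds of interferon, whereas plasmacytoid dendritic cells are the classical source of type I interferon.

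The arrays had a median intensity between 53.3 and 54.7, and precision is limited by how few arrays there are. The mean over 5 T cell genes (Cd3e, Cd3d, Cd3g, Cd4 and Cd28) lay between 11.85 and 12.16 on the log2 scale in all 8 arrays, and of these genes Cd28 alone passed the test in delta EGFP+ against WT EGFP+ (difference -0.66, limma adjusted p of 0.031). Foxp3, the gene that carries the tag, read 11.10, 11.51 and 11.21 in the delta EGFP+ arrays, 4.75, 4.86 and 4.64 in the WT EGFP+ arrays, 6.14 in the delta EGFP- array and 4.52 in the WT EGFP- array. In the probe set used for Foxp3, the WT EGFP+ arrays were thus close to the WT EGFP- array (difference 0.24, limma adjusted p of 0.82). Why it read low in these arrays was not tested, and the place of the probe set relative to the tag was not examined. By contrast, 5 of 7 regulatory T cell genes, a list that includes Foxp3, were called higher in WT EGFP+ than in WT EGFP-. The limma threshold was an adjusted p of 0.05, which 1.02% of all genes passed in this direction. The differences were 4.56 for Il2ra, 4.18 for Ikzf2, 5.48 for Ctla4, 1.96 for Tnfrsf18 and 3.78 for Nrp1. The calls of Ctla4 and Tnfrsf18 were lost in some alternative fits, and Il7r had a difference of -1.41 that did not pass. Of those 5, Nrp1 and Il2ra fell in delta EGFP+ against WT EGFP+, by 1.39 (limma adjusted p of 0.015) and 0.75 (0.012). Arrays are named here by their labels throughout, and every direction below rests on those labels.

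The promoters of 5 genes are shown because the results turn on them or because they anchor the motif comparison. Each is the window of 250 bases before and 50 bases after the gene's start, from RefSeq on build GRCm38.p6 and written on the gene's strand. Capitals mark matches to the core of the interferon-stimulated response element, taken as GAAA, any 2 bases and GAAA again, read on both strands and with overlaps joined.
Ifitm2 (chr7:140955912-140956211, minus strand): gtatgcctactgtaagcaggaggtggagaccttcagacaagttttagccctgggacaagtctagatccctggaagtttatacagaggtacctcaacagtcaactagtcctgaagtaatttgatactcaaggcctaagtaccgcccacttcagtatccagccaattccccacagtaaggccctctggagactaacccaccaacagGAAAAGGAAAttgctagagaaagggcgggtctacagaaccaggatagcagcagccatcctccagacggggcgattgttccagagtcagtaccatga
Ifitm3 (chr7:141010695-141010994, minus strand): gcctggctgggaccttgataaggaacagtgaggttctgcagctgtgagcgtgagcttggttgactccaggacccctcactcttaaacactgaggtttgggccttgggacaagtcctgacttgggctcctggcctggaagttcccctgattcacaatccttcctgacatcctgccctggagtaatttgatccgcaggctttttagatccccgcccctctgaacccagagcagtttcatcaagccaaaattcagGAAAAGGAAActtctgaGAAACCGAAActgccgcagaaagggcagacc
Gbp3 (chr3:142559794-142560093, plus strand): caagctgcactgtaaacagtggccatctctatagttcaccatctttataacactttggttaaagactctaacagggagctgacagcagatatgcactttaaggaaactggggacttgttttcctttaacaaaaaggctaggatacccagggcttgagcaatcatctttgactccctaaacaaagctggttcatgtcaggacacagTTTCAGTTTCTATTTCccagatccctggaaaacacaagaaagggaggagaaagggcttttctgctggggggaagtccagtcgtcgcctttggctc
Psmb9 (chr17:34187281-34187580, minus strand): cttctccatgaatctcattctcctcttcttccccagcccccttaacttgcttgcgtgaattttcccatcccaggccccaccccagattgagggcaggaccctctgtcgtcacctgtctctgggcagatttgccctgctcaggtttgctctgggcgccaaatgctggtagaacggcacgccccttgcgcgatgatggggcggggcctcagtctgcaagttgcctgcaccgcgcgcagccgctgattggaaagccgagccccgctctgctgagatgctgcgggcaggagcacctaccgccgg
Ifit1 (chr19:34640639-34640938, plus strand): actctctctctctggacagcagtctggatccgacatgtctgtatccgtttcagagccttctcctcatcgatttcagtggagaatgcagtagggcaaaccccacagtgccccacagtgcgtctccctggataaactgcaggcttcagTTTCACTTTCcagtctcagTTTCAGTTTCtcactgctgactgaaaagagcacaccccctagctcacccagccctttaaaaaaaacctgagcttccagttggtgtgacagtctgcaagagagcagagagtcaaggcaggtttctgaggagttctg
The window of Ifitm2 held 1 match, and those of Ifitm3, Gbp3 and Ifit1 held 2 each, which overlap in Gbp3. Gbp3 has a further window, not shown, that held none. Psmb9 had no match in its window. The Ifitm2, Ifitm1 and Ifitm3 genes are neighbours in that order on chromosome 7, and Psmb9, Tap1 and Psmb8 are neighbours on chromosome 17.

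A RefSeq window was matched for 28 of the 36 measured genes. Some genes had several windows, and a gene was counted if any of its windows held a match. The core occurred in 14 of the 28 genes, or 50%, and in 3.99% of all genes with a window. Of the type I led genes 8 of 16 had it, of the gamma-led genes 4 of 9 and of the Ifitm genes 2 of 3. The shorter STAT palindrome TTCNNNGAA, searched in the same way, occurred in 8 of the 28 genes (28.6%), and in 9.55% of all genes with a window. Of the genes called higher in delta EGFP+ against WT EGFP+, 3 of 6 with a window had the core, as did 11 of 22 not called, 50% in each case. A match is a description of these letters and not of a bound site.

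**Figure D1:**
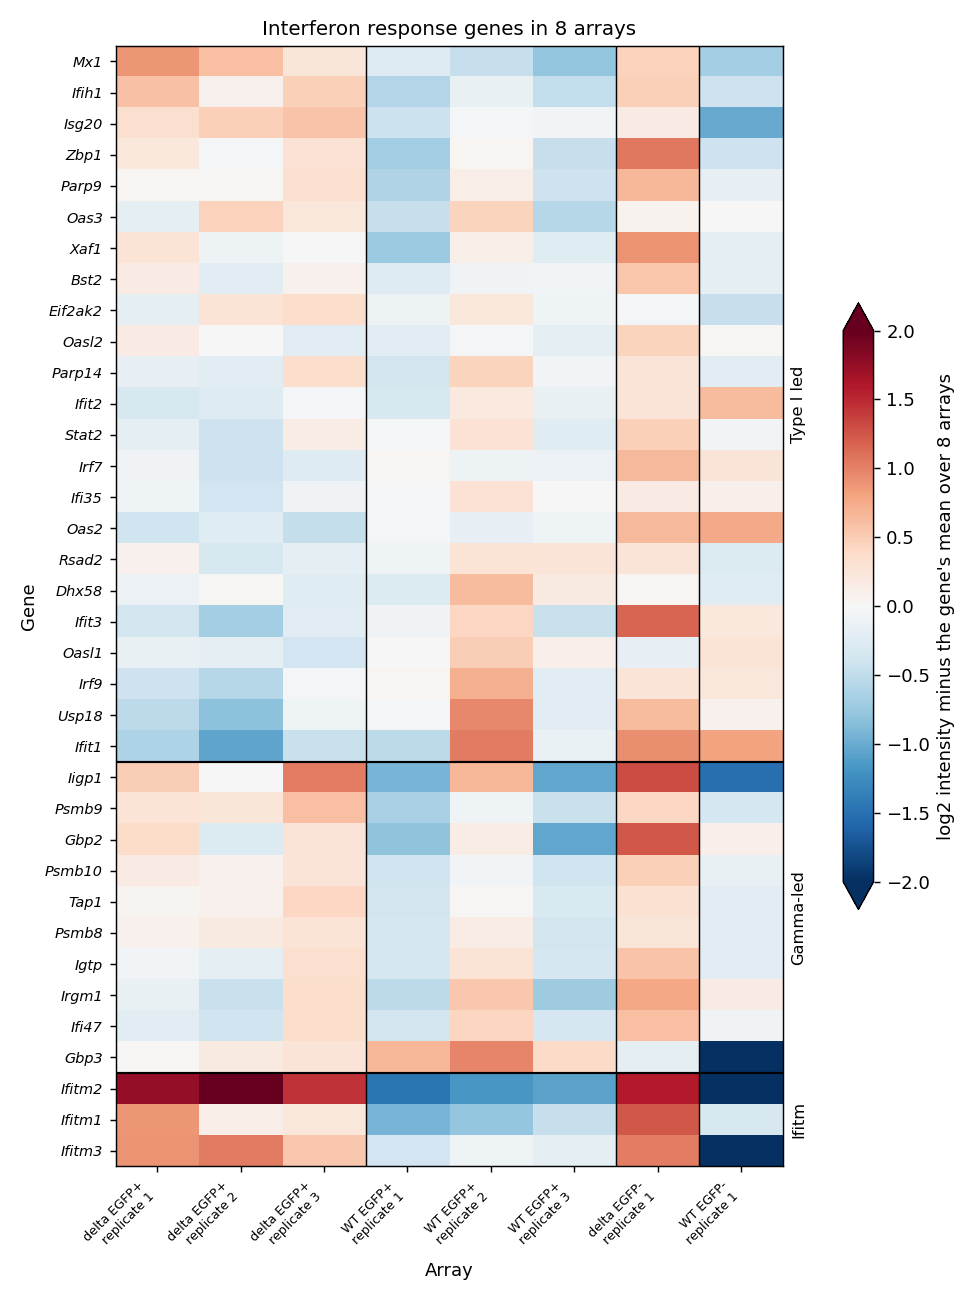
Heat map of the 36 interferon response genes (rows, grouped by class) in the 8 arrays (columns), coloured by log2 intensity minus the gene's own mean over the 8 arrays, with the colour scale ending at 2 in each direction. The Ifitm rows separate the delta arrays from the WT arrays, WT EGFP+ replicate 2 is redder than the other WT EGFP+ arrays in most other rows, and the delta EGFP- array was the highest of the 8 in 15 of the 36 genes.

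Delta EGFP+ cells were first set against WT EGFP+ cells. All 3 Ifitm genes rose in delta EGFP+, together with Mx1, Ifih1 and Isg20 of the 23 type I led genes and Psmb9 of the 10 gamma-led genes. None of the 36 genes fell, although Gbp3 was called lower in 2 of 14 alternatives, without WT EGFP+ replicate 3 (-0.67) and with the mean of all probe sets of a gene. Of the 23 type I led genes, 10 had a difference above 0 and 13 below 0. With limma across all probe sets and a Benjamini-Hochberg adjusted p below 0.05, 7 of 36 genes were higher and 0 lower, against 10.4% of all genes higher and 6.02% lower. At an unadjusted p below 0.05 the counts were 10 higher and 3 lower, against 17.2% and 11.7% of all genes. The median difference was -0.11 for the type I led genes (range -0.83 to 1.07), 0.38 for the gamma-led genes (range -0.52 to 0.94) and 1.14 for the Ifitm genes, beside 0.02 over all genes. In bulk RNA of this kind, fewer cells of a type and less RNA per cell cannot be told apart.

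The Ifitm proteins are small membrane proteins that hinder the entry of enveloped viruses. Ifitm2 read 10.45, 10.87 and 10.15 in the delta EGFP+ arrays, against 7.23, 7.54 and 7.62 in the WT EGFP+ arrays. The groups were far apart with no overlap, and the difference of 3.03 ± 0.20 (SE) corresponds to 8.15-fold, with a limma adjusted p of 0.00018. Ifitm3 read 9.61, 9.75 and 9.26 in delta EGFP+, against 8.33, 8.63 and 8.53 in WT EGFP+, again without overlap. Its difference was 1.04 ± 0.16, or 2.06-fold, with a limma adjusted p of 0.0051. Ifitm1 read 7.59, 6.85 and 6.94 in delta EGFP+ and 5.78, 5.94 and 6.25 in WT EGFP+, so that every delta array again lay above every WT array. Its difference was 1.14 ± 0.22, or 2.21-fold, with a limma adjusted p of 0.013, and the call was lost without WT EGFP+ replicate 1 (adjusted p of 0.056). These genes are close relatives, and probes that bind more than 1 of their transcripts would make their values less independent, which was not tested.

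Of the type I led genes, 3 rose. Mx1, a dynamin-like GTPase that blocks influenza and related viruses, read 6.52, 6.23 and 5.87 in delta EGFP+ and 5.38, 5.17 and 4.85 in WT EGFP+. The lowest delta array stood above the highest WT array, and the difference was 1.07 ± 0.20 with a limma adjusted p of 0.012. Its mean intensity lay at percentile 37.4 of all genes, and the file gives no detection call for so low a value. Ifih1, a cytoplasmic sensor of double-stranded RNA, read 10.20, 9.69 and 10.08 in delta EGFP+ and 9.02, 9.46 and 9.12 in WT EGFP+ (difference 0.79 ± 0.18, limma adjusted p of 0.024). Isg20, an exonuclease that degrades viral RNA, read 10.01, 10.17 and 10.27 in delta EGFP+ and 9.27, 9.65 and 9.64 in WT EGFP+ (difference 0.63 ± 0.14, limma adjusted p of 0.026). Neither gene's groups overlapped, yet each call was lost when single arrays were left out, with adjusted p reaching 0.094 for Ifih1 and 0.088 for Isg20. For both genes these were the fits without WT EGFP+ replicate 1, WT EGFP+ replicate 3, delta EGFP+ replicate 1 or delta EGFP+ replicate 3, and for Isg20 also the fit without delta EGFP+ replicate 2.

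The other 20 type I led genes did not pass the test. Ifit2, an RNA-binding protein that limits viral translation, stood at the middle of the class with 8.84, 8.90 and 9.14 in delta EGFP+ and 8.84, 9.35 and 9.01 in WT EGFP+. Stat2, the STAT partner of IRF9, read 7.70, 7.46 and 8.02 in delta EGFP+ and 7.85, 8.16 and 7.63 in WT EGFP+. The arrays of both groups were interleaved for these genes. The lowest difference in the class was that of Ifit1, a sensor of foreign RNA ends, with 6.63, 6.19 and 6.81 in delta EGFP+ and 6.72, 8.29 and 7.11 in WT EGFP+ (difference -0.83 ± 0.38, limma adjusted p of 0.23). WT EGFP+ replicate 2 was the highest array of all 8 for Ifit1. Usp18, a protease that strips ISG15 from proteins and dampens the type I receptor, had a difference of -0.71 (limma adjusted p of 0.22), and Irf9 one of -0.52 (0.26). At the upper end, Zbp1, a sensor of Z-form nucleic acid, had a difference of 0.53 (limma adjusted p of 0.14), and Parp9 one of 0.41 (0.25). Across the 36 genes, every delta EGFP+ array lay above every WT EGFP+ array in 9, against 20.2% of all genes, and below in 4 (Oas2, Oasl1, Ifi35 and Gbp3), against 14.0% of all genes.

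**Figure D2:**
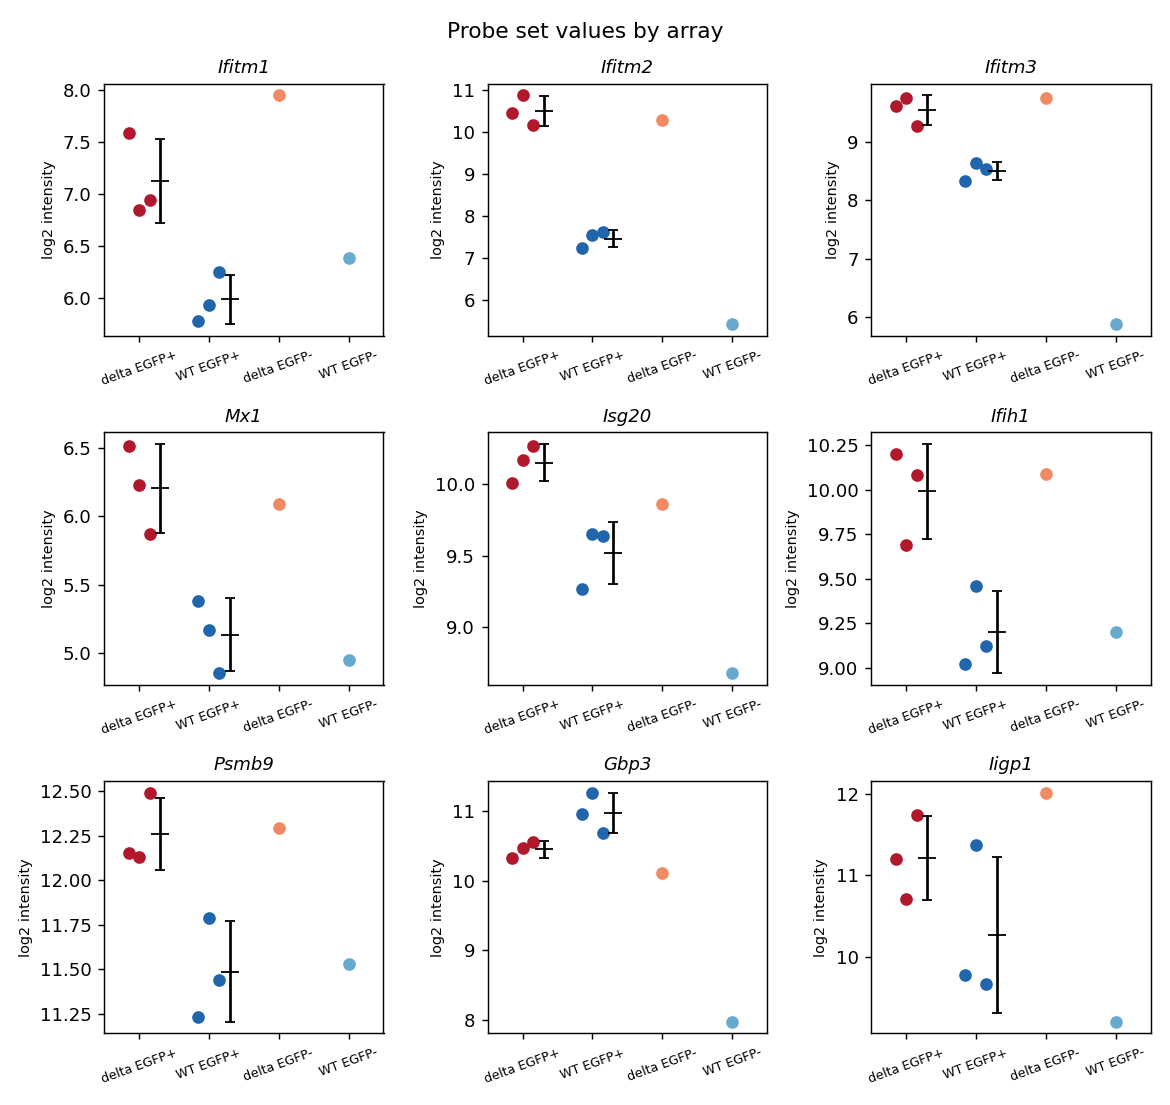
Log2 intensity of 9 genes in each array (1 panel per gene, each with its own y axis), with points for single arrays and a black bar for the mean and SD of the 3 arrays of an EGFP+ group. The delta EGFP+ points lie above the WT EGFP+ points for the 7 genes that rose. The WT EGFP- point is lowest for Ifitm2, Ifitm3, Isg20, Gbp3 and Iigp1, and WT EGFP+ replicate 2 (the middle WT EGFP+ point) stands with the delta arrays for Iigp1.

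Among the gamma-led genes, those of the immunoproteasome had positive differences. This form of the proteasome replaces 3 catalytic subunits and favours peptides for MHC class I. Psmb9 read 12.15, 12.13 and 12.49 in delta EGFP+ and 11.23, 11.79 and 11.44 in WT EGFP+, with no overlap (difference 0.77 ± 0.17, 1.70-fold, limma adjusted p of 0.025). Its call was lost without any 1 of the EGFP+ arrays except WT EGFP+ replicate 2, with adjusted p up to 0.085. Psmb10 had a difference of 0.45 (limma adjusted p of 0.068). Psmb8 read 12.59, 12.68 and 12.77 in delta EGFP+ and 12.16, 12.65 and 12.13 in WT EGFP+ (difference 0.37, limma adjusted p of 0.20), so WT EGFP+ replicate 2 reached the delta arrays. Of the constitutive subunits that these replace, Psmb5 rose by 0.65 (limma adjusted p of 0.0098) and Psmb7 by 0.51 (0.014), while Psmb6 had a difference of 0.47 (0.064). Psmb5 kept its call in all 14 alternatives, and Psmb7 lost it without WT EGFP+ replicate 3, delta EGFP+ replicate 1 or delta EGFP+ replicate 2. Tap1, a subunit of the transporter that carries peptides into the endoplasmic reticulum, read 10.80, 10.83 and 11.16 in delta EGFP+ and 10.38, 10.77 and 10.44 in WT EGFP+ (difference 0.40, limma adjusted p of 0.16).

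The GTPases of the gamma-led class, which attack vacuoles that hold pathogens, did not pass the test in this comparison. Iigp1 had the widest spread, with 11.20, 10.71 and 11.74 in delta EGFP+ and 9.78, 11.37 and 9.67 in WT EGFP+ (difference 0.94 ± 0.46, limma adjusted p of 0.26). Gbp2 read 10.82, 10.18 and 10.71 in delta EGFP+ and 9.64, 10.60 and 9.41 in WT EGFP+ (difference 0.69 ± 0.31, limma adjusted p of 0.23). In both genes WT EGFP+ replicate 2 stood with the delta arrays and the other WT EGFP+ arrays stood below them. Gbp3 had a negative difference of -0.52 (limma adjusted p of 0.082), and Igtp, Irgm1 and Ifi47 had differences of 0.16, 0.15 and 0.00.

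WT EGFP+ replicate 2 was the highest of the 3 WT EGFP+ arrays in 30 of the 36 genes (83.3%), against 43.4% of all genes. It was highest in 19 of 23 type I led genes, in 10 of 10 gamma-led genes and in 1 of 3 Ifitm genes. The mean over the gamma-led genes was 11.39, 11.23 and 11.70 in delta EGFP+ and 10.88, 11.59 and 10.83 in WT EGFP+. The mean over the type I led genes was 8.08, 7.95 and 8.14 in delta EGFP+ and 7.86, 8.37 and 7.93 in WT EGFP+. The replicate thus lay at the level of the delta arrays in the first class and above them in the second, while in the Ifitm genes it stayed with its group at 7.37, beside 7.11 and 7.47. Without it, 14 of 36 genes were higher in delta EGFP+ (11.9% of all genes), the 7 others being Oas3, Parp9, Zbp1, Gbp2, Iigp1, Psmb8 and Psmb10. In that fit Iigp1 had a difference of 1.49 (limma adjusted p of 0.0086) and Gbp2 of 1.04 (0.012). Fewer genes were called without other arrays, namely 3 without WT EGFP+ replicate 1 (6.63% of all genes higher), 4 without delta EGFP+ replicate 1 (6.63%) and 4 without delta EGFP+ replicate 3 (8.06%). Without WT EGFP+ replicate 3 there were 4 higher and 1 lower (7.38% and 4.07% of all genes), and without delta EGFP+ replicate 2 there were 5 higher (7.41%). Ifitm2, Ifitm3 and Mx1 were called in every one of these fits.

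The array titles begin with 1 of 3 number series, each holding 1 delta EGFP+ and 1 WT EGFP+ array. Within them the median difference of the gamma-led genes was 0.42, -0.44 and 0.70, and that of the type I led genes 0.17, -0.31 and 0.18. The negative medians belong to the series that holds WT EGFP+ replicate 2, so neither class median keeps its sign over the 3 series. All 3 Ifitm genes were higher in the delta array within each series.

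**Figure D3:**
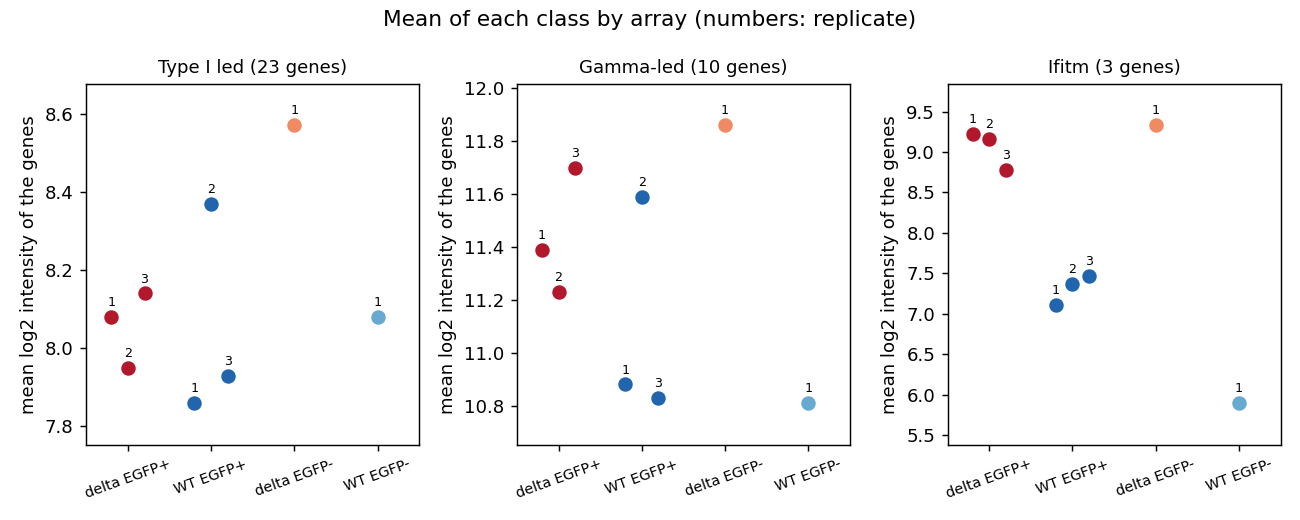
Mean log2 intensity of the type I led, gamma-led and Ifitm genes in each array (1 panel per class, points numbered by replicate, y axes differing between panels). The Ifitm means separate delta EGFP+ (8.78 to 9.22) from WT EGFP+ (7.11 to 7.47), whereas WT EGFP+ replicate 2 overlaps the delta EGFP+ arrays for the gamma-led genes and exceeds them for the type I led genes.

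WT EGFP+ cells were next set against the single WT EGFP- array. Gbp3, Ifitm3 and Ifitm2 rose in WT EGFP+, and none of the 36 genes fell. However, Oas2 (difference -0.86) was called lower in 3 of 13 alternatives, and Ifit1 and Ifit2 in 1 of 13 each. The main fit thus gave 3 of 36 genes higher and 0 lower by limma, against 1.02% of all genes higher and 0.478% lower. At an unadjusted p below 0.05 it gave 4 higher and 2 lower, against 5.54% and 5.37% of all genes. Gbp3, a guanylate-binding GTPase, read 10.96, 11.26 and 10.68 in WT EGFP+ and 7.97 in WT EGFP-. The difference was 3.0 ± 0.23, or 7.98-fold, with a limma adjusted p of 0.0022. Ifitm3 at 5.88 and Ifitm2 at 5.43 in WT EGFP- lay likewise below all WT EGFP+ arrays, with differences of 2.62 ± 0.22 (limma adjusted p of 0.0031) and 2.03 ± 0.28 (0.018). Ifitm1, with 6.39 in WT EGFP-, had a difference of -0.40 (limma adjusted p of 0.80). The Ifitm2 call was lost in 4 of 13 alternatives, among them those without WT EGFP+ replicate 3 and without delta EGFP+ replicate 1. The median difference was -0.02 for the type I led genes and -0.01 for the gamma-led genes, beside -0.02 over all genes. The spread in this test comes from the EGFP+ arrays alone, since the EGFP- groups had 1 array each.

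**Figure D4:**
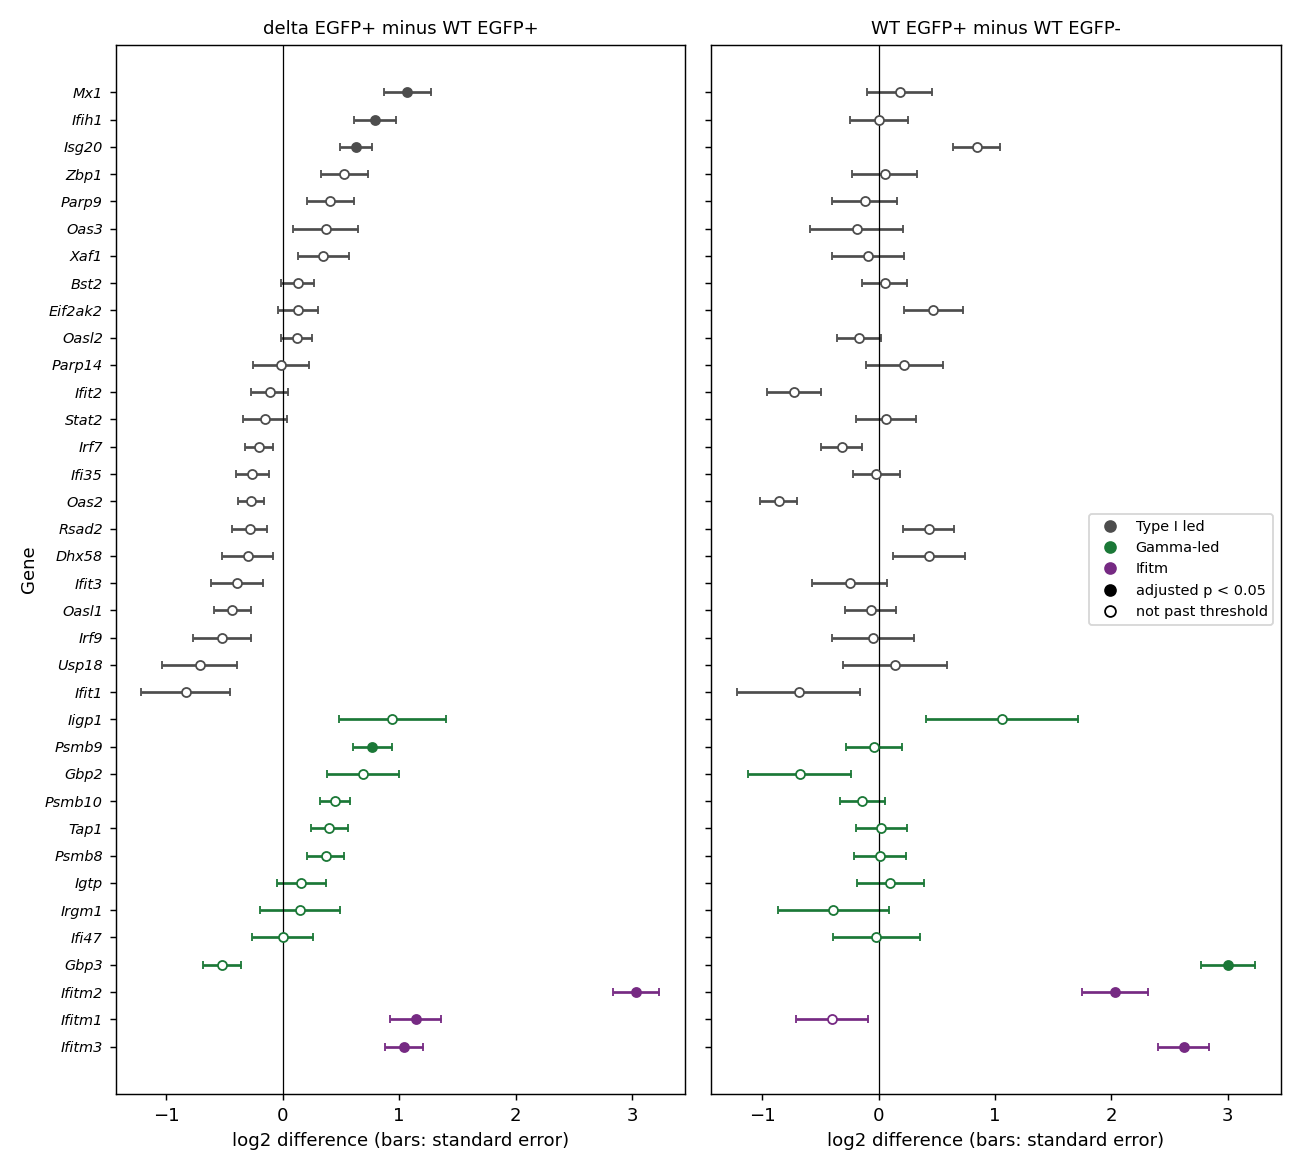
Log2 differences of the 36 genes for delta EGFP+ minus WT EGFP+ (left) and WT EGFP+ minus WT EGFP- (right), with bars for the standard error and filled points for a limma adjusted p below 0.05. Ifitm2 (3.03 and 2.03) and Ifitm3 (1.04 and 2.62) are filled on both sides, Gbp3 (-0.52 and 3.0) only on the right, and the type I led genes lie mostly near 0.

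For delta EGFP+ against delta EGFP-, 0 of 36 genes passed the limma test in either direction, against 0.0879% of all genes. At an unadjusted p below 0.05, 0 were higher and 12 lower, against 5.71% and 5.25% of all genes. The difference was below 0 in 30 of 36 genes with a median of -0.46, beside 0.02 over all genes. The lowest values were those of Ifit1, with a difference of -1.64 (limma adjusted p of 0.38), and of Ifit3, another member of its family, with -1.59 (0.18). Gbp3 read 10.32, 10.47 and 10.55 in delta EGFP+ and 10.11 in delta EGFP-, Ifitm2 read 10.29 in delta EGFP- and Ifitm3 9.74. For these 3 genes the delta EGFP- array thus lay within or close to the range of the delta EGFP+ arrays.

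The test of whether the EGFP difference itself differed between the delta and WT alleles gave 0 of 36 genes past the threshold, against 0.066% of all genes, and 0 higher and 7 lower at an unadjusted p below 0.05, against 3.13% and 3.63% of all genes. Ifitm3 had an interaction of -2.81 ± 0.32 (limma adjusted p of 0.053), Gbp3 of -2.66 ± 0.32 (0.061) and Ifitm2 of -1.83 ± 0.40 (0.35). Both Ifitm3 and Gbp3 passed the threshold in 4 of 13 alternatives, 1 of them the fit without WT EGFP+ replicate 2. This comparison shares its arrays with those above.

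The single delta EGFP- array was set against the single WT EGFP- array by values alone, with no test. It was higher in 33 of 36 genes, with a median difference of 0.61 beside 0.00 over all genes. Of the 36, 10 were higher by 1 log2 unit or more, against 3.78% of all genes, and 0 were lower by that much, against 1.04% of all genes. Ifitm2 read 10.29 in delta EGFP- and 5.43 in WT EGFP-, Ifitm3 read 9.74 and 5.88 and Ifitm1 read 7.95 and 6.39. Iigp1 read 12.01 in delta EGFP- and 9.21 in WT EGFP-, Gbp3 10.11 and 7.97, and Zbp1 10.54 and 9.07. Gbp2, Isg20, Mx1 and Xaf1 complete the 10. The gamma-led genes were higher in 10 of 10 cases, with a median of 0.71 and a smallest difference of 0.45, and the type I led genes in 20 of 23, with a median of 0.47. The exceptions were Ifit2, Oas2 and Oasl1. The delta EGFP- array was the highest of all 8 in 15 of 36 genes (41.7%), against 10.4% of all genes. Some markers of other cells also differed between these arrays. Of 7 regulatory T cell genes, 5 were higher in delta EGFP- by 1 log2 unit or more (Ikzf2 by 3.5, Ctla4 by 3.18, Il2ra by 2.09, Foxp3 by 1.63 and Nrp1 by 1.36) and Il7r was lower (-1.12). Of 8 myeloid genes Mpeg1 and Cd68 were higher by 1.84 and 1.19, but 4 of the 8 lay below 0 and the median was -0.02. Of 5 NK cell genes Ncr1 was higher by 1.04, with 3 of the 5 above 0 and 2 below. Cd8a was higher by 2.24, while Cd8b1, the other CD8 T cell gene, had a difference of -0.08. Ighm was lower (-1.92), and of the 7 B cell genes 3 lay above 0 and 4 below, with a median of -0.2. The part of these differences in the values above was not tested.

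The remaining genes of the pathway were examined in delta EGFP+ against WT EGFP+, starting with the ligands. Counts in the lists below stand beside 10.4% of all genes called higher and 6.02% called lower in this comparison. Interferon gamma itself rose, as 1 of 5 measured ligand genes, and Ifng read 10.69, 10.29 and 9.88 in delta EGFP+ and 6.71, 5.44 and 6.58 in WT EGFP+. The groups did not overlap, and the difference was 4.05 ± 0.35 with a limma adjusted p of 0.00045. In the EGFP- arrays Ifng read 9.59 in delta and 6.85 in WT. The type I genes Ifnb1, Ifna1, Ifna2 and Ifna4 were all low, with differences between -0.29 and 0.07 that did not pass. WT EGFP+ replicate 2, which was high in the gamma-led genes, had the lowest Ifng value of the 8 arrays.

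Of 5 receptor genes, 3 fell in delta EGFP+ and none rose, against 6.02% of all genes lower and 10.4% higher. Ifnar1, a chain of the type I receptor, read 8.79, 8.57 and 8.88 in delta EGFP+ and 9.78, 9.87 and 9.82 in WT EGFP+ (difference -1.08 ± 0.12, limma adjusted p of 0.0012). Ifngr2, the signalling chain of the interferon gamma receptor, read 7.72, 7.52 and 7.69 in delta EGFP+ and 9.20, 8.34 and 9.07 in WT EGFP+ (difference -1.23 ± 0.22, limma adjusted p of 0.010). Ifngr1, its ligand-binding chain, had a difference of -0.66 (limma adjusted p of 0.022), which was lost in 5 of 14 alternatives, each without 1 EGFP+ array other than WT EGFP+ replicate 2. None of these 3 genes overlapped between the groups, and 14.0% of all genes had every delta EGFP+ array below every WT EGFP+ array. Ifnar2 had a difference of -0.23 (limma adjusted p of 0.21).

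Of 5 receptor kinases and STATs, Jak2 rose by 0.59 (limma adjusted p of 0.022) and Jak1 fell by 0.66 (0.016). Jak2 lost its call in 5 of 14 alternatives and Jak1 in 4 of 14, with limma adjusted p up to 0.082 and 0.061. Both lost it without WT EGFP+ replicate 1 and without delta EGFP+ replicate 1. Among 6 other interferon regulatory factors only Irf8, which drives myeloid and T cell effector genes, passed, with a rise of 1.12 (limma adjusted p of 0.0070). Among 8 feedback inhibitors and phosphatases, Ptpn11 rose by 1.03 (limma adjusted p of 0.0014). Socs3, an inhibitor of cytokine receptors, fell by 0.77 (0.026) and Pias1, an inhibitor of STAT signalling, fell by 0.57 (0.029). Among 13 genes of nucleic acid sensing, the DNA sensor Cgas rose by 0.88 (limma adjusted p of 0.026), and the RNA sensor Tlr7, Ifi204 and the kinase Ikbke fell by 1.66 (0.0017), 0.86 (0.0022) and 0.60 (0.024). Socs3, Pias1, Cgas and Ikbke each lost their calls without WT EGFP+ replicate 1, without WT EGFP+ replicate 3 and in at least 1 other alternative. Irf8, Ptpn11, Tlr7 and Ifi204 kept their calls in all alternatives that could be fitted. With the mean of all probe sets of a gene the difference was 0.60 for Ptpn11 and -0.90 for Tlr7, and with 16 added to the intensity it was -0.50 for Ifi204. Tlr7 and Ifi204 were low, at percentiles 42.0 and 16.7 of all genes.

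Of 23 further type I led genes, 3 rose and 3 fell, against 10.4% and 6.02% of all genes. Cxcl10, a chemokine that draws cells bearing Cxcr3, read 9.70, 9.67 and 9.23 in delta EGFP+ and 7.03, 6.01 and 7.57 in WT EGFP+ (difference 2.66 ± 0.36, limma adjusted p of 0.0031). Cxcl10 is induced by interferon gamma as well, and its groups did not overlap. Lgals3bp, a secreted glycoprotein, rose by 1.40 (limma adjusted p of 0.0016), and Ly6e, a surface protein, by 0.73 (0.036). Samhd1, which depletes nucleotides, fell by 0.71 (limma adjusted p of 0.0090), Ddx60 by 0.97 (0.042) and Mx2 by 0.53 (0.031). Cxcl10, Lgals3bp and Samhd1 kept their calls in all 14 alternatives. Ly6e lost its call in 4 of them, Ddx60 in 5 and Mx2 in 8. With the mean of all probe sets of a gene the Ly6e difference was 0.32, and its call was lost. Of 10 further gamma-led genes, 0 passed the limma test. At an unadjusted p below 0.05 there was 1 higher and 0 lower, against 17.2% and 11.7% of all genes. Cxcl9 had the smallest p (difference 0.39, limma adjusted p of 0.070), followed by Cd274 (-0.38, 0.26). Of 9 genes for MHC class I loading, Erap1, which trims peptides, rose by 0.59 (limma adjusted p of 0.019), and the other 8 did not pass. The Erap1 call was lost without WT EGFP+ replicate 1, delta EGFP+ replicate 1 or delta EGFP+ replicate 3.

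Markers of other cells were set beside these values. The mean over 8 myeloid genes was 6.32, 6.03 and 5.84 in delta EGFP+ and 6.15, 5.70 and 6.91 in WT EGFP+. WT EGFP+ replicate 2 thus had the lowest of the 8 array means and WT EGFP+ replicate 3 the highest. Of these genes, 3 had a difference above 0 and 5 below 0, and none passed. Csf1r read 7.13, 6.57 and 5.88 in delta EGFP+ and 8.36, 6.81 and 9.85 in WT EGFP+ (difference -1.81, limma adjusted p of 0.15). Lyz2 had a difference of 0.50 (limma adjusted p of 0.17). The part of such cells in the values above was not tested. The mean over 7 plasmacytoid dendritic cell genes lay between 7.16 and 7.31 in delta EGFP+ and between 7.24 and 7.30 in WT EGFP+, and within the list Ccr9 rose by 0.78 (limma adjusted p of 0.0041) while Pacsin1 fell by 0.53 (0.032). Among 7 B cell genes Ighm fell by 2.24 (limma adjusted p of 0.012, lost without delta EGFP+ replicate 1) and the others did not pass. The mean over the B cell genes was highest in WT EGFP+ replicate 3, at 6.94. Among 5 NK cell genes none passed, with differences of -0.82 for Tyrobp (limma adjusted p of 0.16) and -0.52 for Fcer1g (0.31). Cd8a read 8.5, 8.84 and 5.95 in delta EGFP+ and 6.36, 5.22 and 6.29 in WT EGFP+, and 8.52 in delta EGFP- and 6.28 in WT EGFP-. Cd8b1, the other CD8 gene, read 6.82, 7.41 and 6.56 in delta EGFP+ and 6.86, 6.66 and 7.13 in WT EGFP+, and 7.59 in delta EGFP- and 7.67 in WT EGFP-. Neither passed the test (limma adjusted p of 0.16 for Cd8a and 0.94 for Cd8b1). The mean over 12 heat shock and immediate-early genes was 9.44, 9.44 and 7.99 in delta EGFP+ and 10.53, 9.40 and 10.50 in WT EGFP+. All 12 genes had a difference below 0, and 3 heat shock genes passed the test. Hspa1b fell by 3.45 (limma adjusted p of 0.014), Hspa1a fell by 1.70 (0.011) and Dnajb1 fell by 0.48 (0.038). Hspa1a kept its call in every alternative fitted, Hspa1b lost it without WT EGFP+ replicate 1, and Dnajb1 lost it without any 1 of the EGFP+ arrays. WT EGFP+ replicate 2 and delta EGFP+ replicate 3 had the lowest mean of their groups and were each the lowest of their group in 9 of the 12 genes, but WT EGFP+ replicate 2 was the highest of its group in Hspa1a, Hspa1b and Dnajb1. Without both arrays, 12 of 36 interferon response genes were higher in delta EGFP+ and 0 lower, against 11.1% and 7.32% of all genes. This fit was chosen after seeing the data. WT EGFP+ replicate 2 was also the highest of its group in 30 of the 36 genes, and leaving it out alone gave 14. The fit therefore cannot tell the heat shock and immediate-early genes apart from other traits of that array. Their part in the results was not tested.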

How the data were processed

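The deposited files give linear intensity per probe set, which the authors computed with RMA (per the submitters' processing notes, without a version). RNA was biotin-labelled, per the labels' protocols. RMA compresses low intensities, so differences of low genes may be understated.

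Of 45101 probe sets, 64 were controls and the other 45037 all entered the fit. The platform table gave 34945 of them 1 symbol, 932 several and 9160 none here, and 34741 matched a RefSeq gene. Log2 was taken without a pseudocount. limma 3.58.1 in R 4.3.3 fitted a mean per group to all 8 arrays (4 residual and 3.72 prior degrees of freedom), two-sided, with Benjamini-Hochberg adjustment across the whole table and a threshold of 0.05. SE is limma's standard error. The fit was tested on simulated data.

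The members, classes and lists were chosen with earlier results of these data known, so counts over them are descriptions. Given in full were members past the threshold, up to 6 per class and direction, the 2 nearest each class median and, per pathway list, up to 4 past the threshold or else 2 with the smallest p, plus Foxp3, Ifng and the receptor chains. Values of Ifit1, Usp18, Irf9, Zbp1, Parp9, Iigp1, Gbp2, Gbp3, Psmb10, Psmb6, Igtp, Irgm1, Ifi47, Ifit3 and Cd8a were added after their values were seen. Deviations of arrays sharing a title number series correlated at 0.121, 0.046 and -0.102, so the series were not treated as pairs.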

Additional observations from a re-analysis of the deposited data

How the results depend on the processing

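The count of 7 interferon response genes called in delta EGFP+ against WT EGFP+ (16.45% of all genes called) ranged from 3 to 14 when 1 array was left out. In those fits 9.92% to 19.06% of all genes were called. Leaving out WT EGFP+ replicate 2 and delta EGFP+ replicate 3 together, an alternative chosen after seeing the data, gave 12 (18.46% of all genes called). It gave 6 called genes in WT EGFP+ against WT EGFP- (3 higher, 3 lower; 4.48% of all genes called), 3 in delta EGFP+ against delta EGFP- (all lower; 0.86%) and 2 in the interaction (both lower; 0.45%). With the mean of all probe sets of a gene, delta EGFP+ against delta EGFP- gave 1 called gene (0.46% of all genes) and the interaction 2 (0.20%), and eBayes with trend and robust settings also gave 2 in the interaction (0.20%). When 1 array was left out, the interaction gave 0 to 2 (0.01% to 0.31% of all genes). WT EGFP+ against WT EGFP- then gave 2 to 3 (0.82% to 3.19%). Within title number series 76, 82 and 85 the type I led median was 0.17, -0.31 and 0.18, and the gamma-led median was -0.44 in series 82. Within series 76, 82 and 85, 4, 8 and 7 of the 36 genes had the opposite sign to the difference over all arrays, Iigp1, Gbp2 and Zbp1 among them in series 82. Among named genes past the threshold, Ighm turned its direction, to 0.23 (limma adjusted p of 0.66), with the mean of its probe sets. With the title number series as a replicate block, 6 of the 36 genes were called in delta EGFP+ against WT EGFP+ (13.19% of all genes). In that fit 2 were called in WT EGFP+ against WT EGFP- (0.25% of all genes) and 0 in each of the other comparisons. In delta EGFP+ against WT EGFP+, Ifih1, Jak2, Socs3, Ddx60, Mx2, Pacsin1, Cd28 and Dnajb1 were no longer called. The numbers were not shown to pair the arrays. The causes of these shifts were not tested. Some of the alternatives also leave fewer arrays or fewer tests. Other normalization choices (a pseudocount of 16, centring on array medians, EGFP+ arrays alone, probe sets above the median level) kept the counts of called genes within 1.5 times. With the pseudocount, WT EGFP+ against WT EGFP- gave 2 higher and 1 lower (1.36% of all genes called), in place of 3 higher and 0 lower.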

Other observations

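Some interferon response genes have further probe sets, and these did not always follow the one used. In delta EGFP+ minus WT EGFP+, the second probe set of Zbp1 had a difference of -0.01 beside 0.53 for the first. The second probe set of Xaf1 had -1.33 beside 0.35, with 5.24, 4.86 and 5.04 in delta EGFP+ and 7.69, 6.63 and 4.80 in WT EGFP+. Those of Iigp1 and Gbp2 had 1.13 and 0.53, beside 0.94 and 0.69. None of these 4 second probe sets passed the limma test.

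In WT EGFP+ against WT EGFP-, the pathway lists held 1 rise and 1 fall by limma, beside 1.02% of all genes higher and 0.478% lower. Cish, an inhibitor of cytokine receptors, rose by 1.91 (adjusted p of 0.0045), and Ifi204, a DNA-binding protein of the innate response, fell by 1.04 (adjusted p of 0.024). The 5 receptor genes had differences between 0.29 and 1.06, none of which passed.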
